A study of Mus musculus with 12 samples.

Results

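The enzymes of the tricarboxylic acid cycle were followed in skeletal muscle and hypothalamus of a congenic and a wild type mouse strain. The members were 9 genes chosen by name: Cs, Idh3a, Idh3b, Idh3g, Ogdh, Dld, Sucla2, Fh1 and Mdh2. Every probe whose symbol in the platform annotation was one of these names, or a synonym of one, was taken. This gave 8 probes of 33012, 1 for each of 8 genes out of 13835 named genes, and Idh3b was not analysed here. None of the measured genes lies on chromosome 17, the chromosome that differs between the strains: they map to chromosomes 10 (Cs), 9 (Idh3a), X (Idh3g), 11 (Ogdh), 12 (Dld), 14 (Sucla2), 1 (Fh1) and 5 (Mdh2).

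The cycle runs in the mitochondrial matrix, where it oxidises the acetyl group of acetyl-CoA to carbon dioxide and hands the electrons to the respiratory chain through NADH and reduced flavin. Its intermediates also feed the synthesis of lipids, haem and amino acids, so that in neurons the step at 2-oxoglutarate borders on glutamate metabolism. In muscle the enzymes are densest in oxidative fibres, and citrate synthase activity is a customary measure of mitochondrial content there.

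The animals were male mice. One strain was homozygous for the congenic interval of B6.CAST-17, which is chromosome 17 material of the wild-derived CAST strain on the B6 background; the other was wild type B6. Each strain gave 3 arrays from skeletal muscle and 3 from hypothalamus, 12 arrays in all, and each array was a separate biological replicate per the series text. The study's title concerns physical activity and carbohydrate preference, and the arrays compare the strains within each tissue. Only the hypothalamus titles call the congenic animals short congenics, and no label states whether a muscle and a hypothalamus array with the same number came from the same mouse. The sources used here name neither the muscle sampled nor the age or feeding state of the animals. RNA came from whole tissue, so fewer cells of a type and less RNA per cell cannot be told apart in any value given here.

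Values are log2 intensities of single probes, on a scale that ran from 5.35 to 21.13. The median probe stood at 9.12 on the muscle arrays and at 8.98 on those of hypothalamus. A probe's level depends on its own hybridisation, so levels are compared between arrays for a gene and never between genes. The tissue labels matched the medians of their markers on all arrays but 1. The median of 8 skeletal muscle markers was 19.79 to 20.11 in muscle and 9.75 or lower in hypothalamus. The median of 8 neuron markers was 16.04 to 17.14 on 5 hypothalamus arrays and 9.85 or lower in muscle. Not every marker differed: in limma over 11 arrays 7 of the 8 muscle markers were called higher in muscle. Of the 8 neuron markers 5 were called lower there, at an adjusted p under 0.05. Of all named genes 49.5% were called in either direction. On wild type hypothalamus array 1 the neuron markers had a median of 10.56, and 46.4% of the 2511 genes that were bright on the other arrays (mean above 13) lay over 1 log2 unit below their mean there. Congenic muscle array 3 also stood apart, with 9.25% of 2908 bright genes over 1 log2 unit below the mean of the other 5 muscle arrays, against 0.068% to 0.925% on those 5. By the same measure congenic hypothalamus arrays 2 and 3 had 11.6% and 10.9% of bright genes below the mean of the other 4. Wild type array 1 was kept out of that mean, and the remaining hypothalamus arrays had 0.962% to 3.01%. The members' strain differences are given with and without wild type hypothalamus array 1 and congenic muscle array 3.

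**Figure D1:**
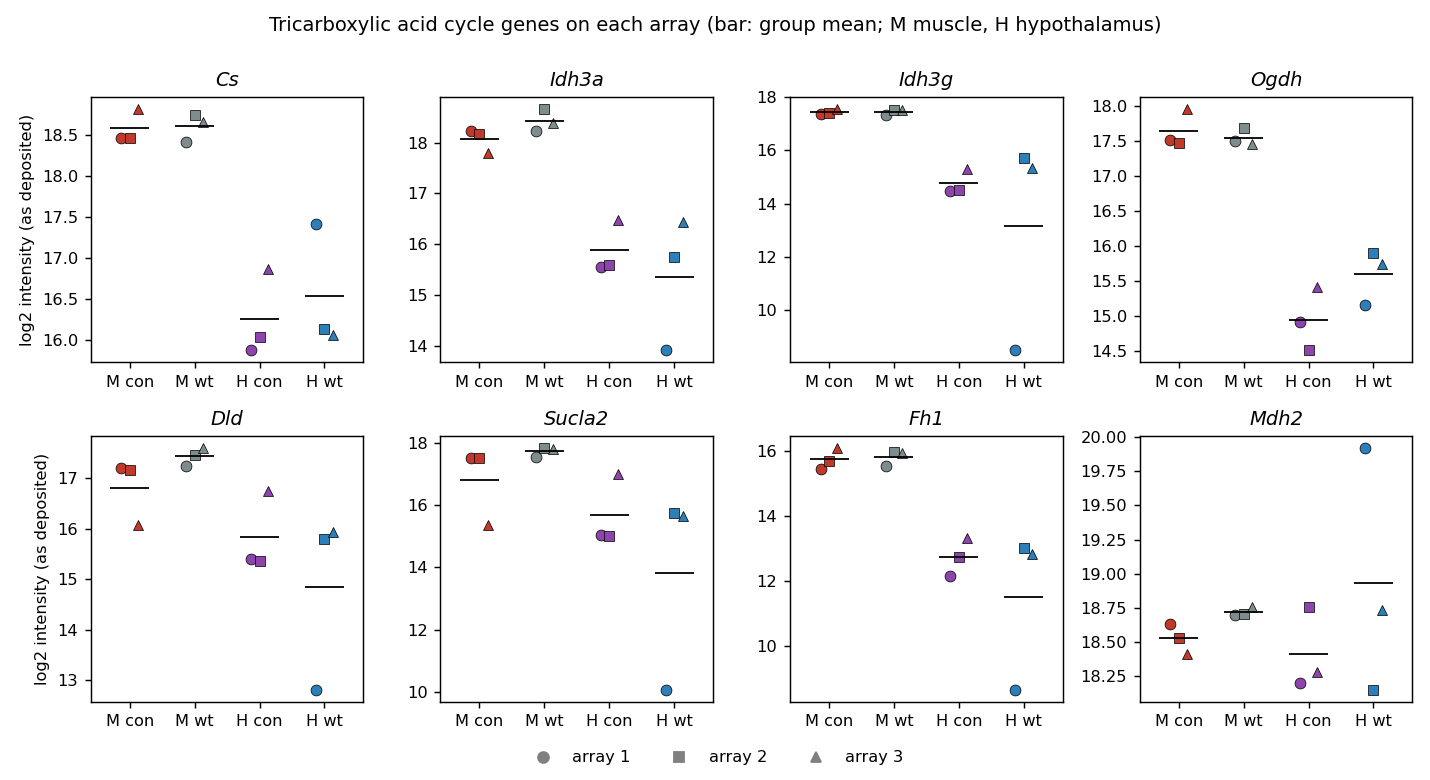
Log2 intensity of the 8 measured cycle genes on each of the 12 arrays, 1 panel per gene, with muscle and hypothalamus arrays side by side, points for single arrays and bars for group means. In muscle the 6 arrays of most genes lie close together, while Sucla2 and Dld drop on congenic array 3 (15.37 and 16.07); in hypothalamus wild type array 1 departs in both directions, from 8.51 for Idh3g to 19.92 for Mdh2.

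In muscle no member of the cycle passed the test for a strain difference. With all 6 arrays, 7 of the 8 genes had a lower mean in the congenic mice, and the largest differences were those of Sucla2 and Dld. In both genes congenic array 3 was the lowest array by more than 1 log2 unit. Without that array all 8 differences were negative, from -0.24 to -0.05. The genes are described in the order of the reactions.

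Citrate synthase (Cs), which condenses acetyl-CoA with oxaloacetate and so opens the cycle, had log2 intensities of 18.46, 18.47 and 18.82 in congenic muscle and 18.42, 18.75 and 18.66 in wild type muscle. The highest array was congenic and the lowest wild type, so the groups overlapped fully. The congenic mean was 18.58 ± 0.21 (SD, n = 3) and the wild type mean 18.61 ± 0.17 (SD, n = 3). The difference was -0.02 with a 95% interval of -0.39 to 0.34, and limma gave an adjusted p of 0.982; without congenic array 3 it was -0.14.

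Isocitrate dehydrogenase is the first decarboxylating step. Idh3a, its catalytic subunit, read 18.23, 18.17 and 17.79 in congenic muscle and 18.23, 18.67 and 18.38 in wild type muscle. The lowest value was again on congenic array 3, and the groups met at 18.23. The difference was -0.36 (SE 0.18, 95% interval -0.76 to 0.03, limma adjusted p = 0.835), and -0.23 without congenic array 3. Idh3g, a regulatory subunit of the same enzyme, read 17.37, 17.41 and 17.56 in congenic and 17.33, 17.51 and 17.49 in wild type muscle. Its groups overlapped and its interval was the second narrowest of the 8 genes after Mdh2, -0.32 to 0.31 around a difference of -0.00 (-0.06 without congenic array 3).

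The 2-oxoglutarate dehydrogenase complex performs the second decarboxylation. Ogdh, its first (E1) component, read 17.52, 17.46 and 17.95 in congenic muscle and 17.49, 17.67 and 17.46 in wild type muscle. It was the only member with a positive difference, 0.10 (95% interval -0.28 to 0.48, limma adjusted p = 0.913), and without congenic array 3 it was -0.05. Dld, dihydrolipoamide dehydrogenase, is the E3 component, which this complex shares with pyruvate dehydrogenase and with the branched-chain ketoacid dehydrogenase. It read 17.20, 17.16 and 16.07 in congenic muscle and 17.24, 17.45 and 17.59 in wild type muscle. Every congenic value lay below every wild type value: congenic arrays 1 and 2 were just under the lowest wild type array, and array 3 was more than 1 log2 unit lower. The difference was -0.61 (SE 0.28, 95% interval -1.24 to 0.01, limma adjusted p = 0.835) with all arrays and -0.24 (95% interval -0.53 to 0.05) without congenic array 3.

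Sucla2 encodes the beta subunit of the ADP-forming succinyl-CoA ligase, the step that makes ATP directly from a thioester, and is needed for mitochondrial DNA upkeep in muscle and brain. It had the largest spread of the 8 genes in congenic muscle, with 17.50, 17.50 and 15.37 against 17.52, 17.83 and 17.80 in wild type muscle. Congenic arrays 1 and 2 were just under the lowest wild type array, and array 3 stood about 2 log2 units below all others, so that the groups did not overlap. The fitted difference of -0.93 (SE 0.48) corresponds to a 1.90-fold lower mean in the congenic mice, with a 95% interval of -2.0 to 0.15 and a limma adjusted p of 0.835. Without congenic array 3 it was -0.21 (95% interval -0.50 to 0.07).

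Fumarase (Fh1), which hydrates fumarate to malate and also serves the cytosol, read 15.45, 15.69 and 16.08 in congenic muscle and 15.52, 15.96 and 15.94 in wild type muscle. The groups overlapped, with congenic arrays at both ends, and the difference was -0.07 (95% interval -0.53 to 0.39, limma adjusted p = 0.957), or -0.24 without congenic array 3. Mitochondrial malate dehydrogenase (Mdh2), which closes the cycle by regenerating oxaloacetate and also works in the malate-aspartate shuttle, read 18.63, 18.53 and 18.42 in congenic and 18.70, 18.70 and 18.75 in wild type muscle. Its groups did not overlap and its wild type arrays were the tightest of any member (SD 0.03, n = 3). The difference was -0.19 (95% interval -0.49 to 0.11, limma adjusted p = 0.835) and stayed at -0.14 without congenic array 3.

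Counted over the members, limma called 0 of 8 in muscle at an adjusted p under 0.05, and 0 were under 0.05 before adjustment. Over all probes 0.0182% were called. The median difference of the members was -0.13, against 0.03 over all named genes, of which 46.6% were negative. Dld, Sucla2 and Mdh2 had every congenic array below every wild type array, 3 of 8 members against 5.05% of all genes, and 0 of 8 had every congenic array above, against 7.34%. Without congenic array 3, limma again called 0 of 8 members, with 0 under 0.05 before adjustment and 0.0242% of all probes called, and adjusted p-values ran from 0.911 to 0.968. The members' median was then -0.18 against -0.01 over all genes. Leaving out an array cannot make separate groups overlap, so Dld, Sucla2 and Mdh2 stayed lower without overlap by construction. No other member joined them, so this was 3 of 8 against 10.3% of all genes. Higher without overlap were 0, against 11.3%. The count of negative differences was 4 of 8 in place of 7 when congenic array 1, wild type array 2 or wild type array 3 was left out.

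**Figure D2:**
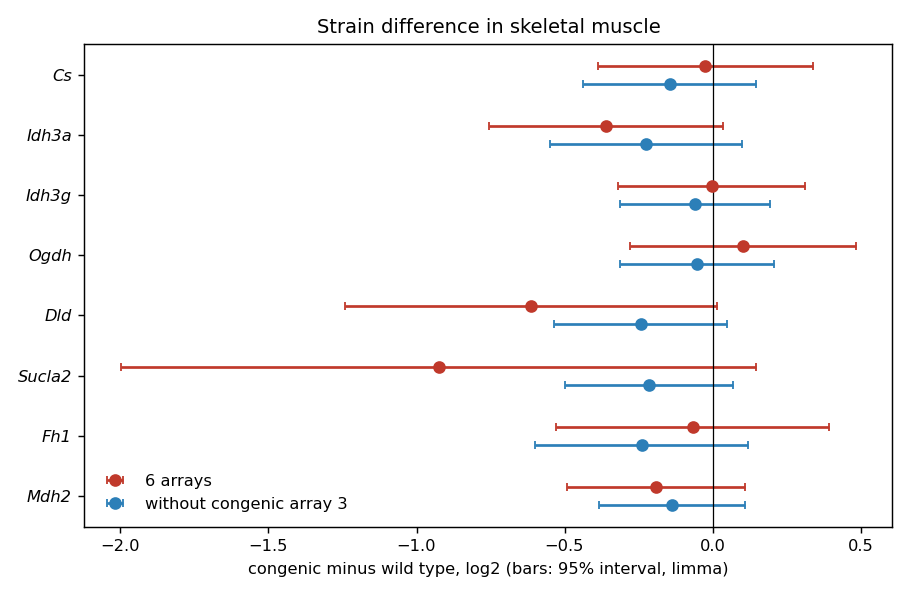
Strain difference in muscle (congenic minus wild type, log2) of each member with its 95% interval, with all 6 arrays and without congenic array 3. With all arrays the differences run from -0.93 (Sucla2) to 0.10 (Ogdh) and every interval includes 0; without array 3 they lie between -0.24 and -0.05.

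Congenic muscle array 3 set Sucla2 and Dld apart from the rest of the cycle. Relative to the mean of the other 5 muscle arrays, Sucla2 lay 2.26 lower (deviation -2.26), at percentile 0.82 of all named genes on that array, and Dld had a deviation of -1.26, at percentile 4.97. Idh3a (-0.54) and Mdh2 (-0.25) were lower to a smaller degree. Idh3g (0.13), Cs (0.27), Fh1 (0.37) and Ogdh (0.43) were higher, but only at percentiles 51.4, 59.3, 65.1 and 68.6. The median deviation over all named genes on that array was 0.11. Within 1 enzyme complex the E3 component was thus low, while the first (E1) component was not. Across the 6 muscle arrays Dld and Sucla2 had a Pearson correlation of 0.99, and of 0.94 over the 5 arrays without congenic array 3. Cs and Sucla2 had a correlation of -0.53 over the 6 arrays and of 0.97 over those 5. These correlations describe arrays that share a tissue and a normalization, and they carry no test.

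Other genes marked the same array. Of 16 regulators of mitochondrial biogenesis 5 lay over 1 log2 unit below the mean of the other arrays and 1 lay over 1 above, with a median deviation of -0.12. By contrast 0 of 27 oxidative phosphorylation genes lay over 1 below, with a median deviation of 0.06 on that array. Of the 8 members 2 lay over 1 below and 0 above, and of all named genes 8.20% below and 8.64% above. Slow-fibre markers had a median deviation of 1.01 over 6 genes, while their summed level was the lowest in muscle (15.07 against 15.52 to 17.23). The summed level of 5 adipocyte markers was 17.13 against 17.81 to 19.49 on the other 5 arrays, and that of 4 erythroid markers 18.96 against 17.34 to 18.35. Fast-fibre markers (6 genes) summed to 22.51 against 22.53 to 22.68. The part of these cell types in the values of Sucla2 and Dld was not tested. Between the strains as a whole, 6 macrophage markers summed to 17.22 to 17.38 in congenic and 16.11 to 16.72 in wild type muscle, without overlap. Of the 6 genes 5 had a positive and 1 a negative difference, and limma called 0, with 3 under 0.05 before adjustment. The 9 fibroblast and tendon markers summed to 20.77 to 20.88 in congenic and 20.43 to 20.71 in wild type muscle, also without overlap, with 8 of 9 positive, 0 called and 3 under 0.05 before adjustment. The part of either list in the strain differences was likewise not tested.

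**Figure D3:**
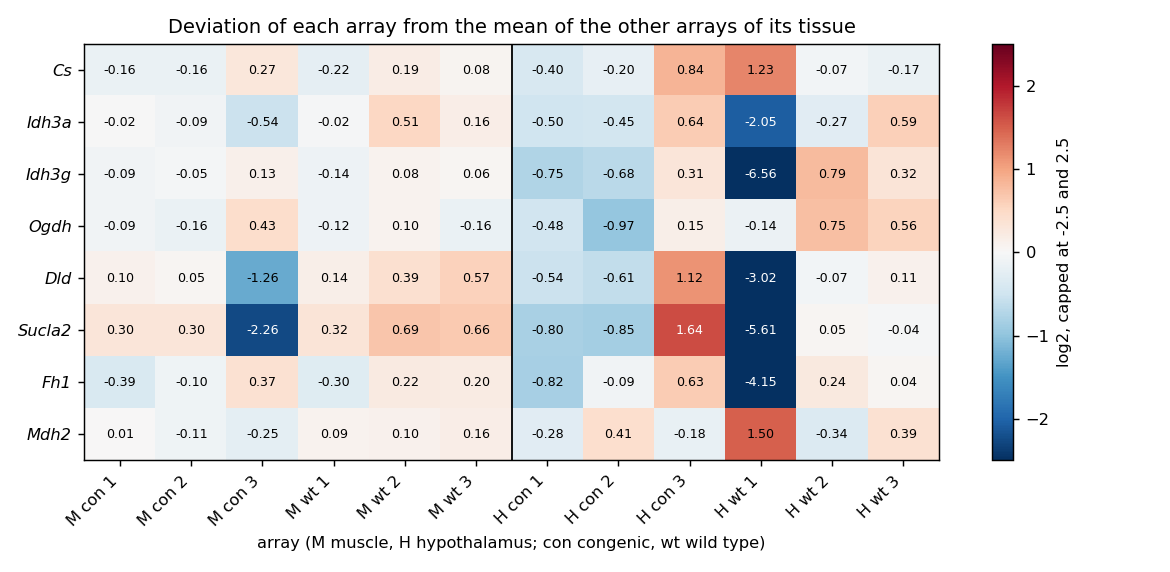
Deviation (log2, colour and printed value) of the 8 members on each of the 12 arrays from the mean of the other arrays of its tissue, with wild type hypothalamus array 1 kept out of the mean for the other hypothalamus arrays; the colour scale stops at 2.5 in either direction. Among the muscle arrays Sucla2 and Dld are lowest on congenic array 3 (-2.26 and -1.26), and both are highest on congenic hypothalamus array 3 (1.64 and 1.12), and wild type hypothalamus array 1 holds values from -6.56 to 1.5.

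The sequences upstream of Dld and Sucla2, the genes that deviated together, are shown with that of Cs, which was not low on congenic muscle array 3. Each is the 150 bases just before the start of the transcript in RefSeq on GRCm38.p6, on the strand of the gene and from 5′ to 3′, at chr12:31351472-31351621 (minus strand, Dld), chr14:73552636-73552785 (plus strand, Sucla2) and chr10:128337577-128337726 (plus strand, Cs). Capitals mark matches to CCAAT and GGGCGG on either strand, the letters of the CCAAT box and of the SP1 GC box.
Dld: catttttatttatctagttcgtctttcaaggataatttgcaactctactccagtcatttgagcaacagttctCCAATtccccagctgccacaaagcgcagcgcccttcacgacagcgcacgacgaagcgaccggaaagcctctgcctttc
Sucla2: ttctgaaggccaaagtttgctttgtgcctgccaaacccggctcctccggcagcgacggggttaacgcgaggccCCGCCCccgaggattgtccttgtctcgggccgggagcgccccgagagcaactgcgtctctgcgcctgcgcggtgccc
Cs: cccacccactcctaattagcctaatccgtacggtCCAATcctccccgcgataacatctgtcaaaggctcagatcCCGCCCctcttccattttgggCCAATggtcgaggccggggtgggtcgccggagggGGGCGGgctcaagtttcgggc
Dld held 1 CCAAT and no GC box, Sucla2 held 1 GC box and no CCAAT, and Cs held both letters. The windows of Dld and Sucla2 thus shared neither of these motifs, and their GC content was 48.7% and 68.0%. In all, 8 of the 9 genes matched the RefSeq promoter table, with 13 windows; Idh3a did not. Several of these windows belong to Ogdh, and some of those overlap. CCAAT was found in 7 of the 13 windows, against 24.5% of all 32851 windows of that length. The genes with it were 5 of 8 (Cs, Idh3b, Ogdh, Dld and Fh1). GGGCGG was found in 4 of the 13 windows, against 28.6% of all, and in 4 of 8 genes (Cs, Ogdh, Sucla2 and Fh1). The NRF1 core GCATGCGC was found in 2 of the 13 windows, both of Ogdh (1.82% of all windows). The ETS core CCGGAAG was found in 1, that of Idh3g (5.52%). AAGGTCA, the core bound by oestrogen-related receptors, was in 0 of 8 genes and in 2.31% of all windows. All motifs were searched on both strands, none contains another, and a match is a description of letters only.

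The other genes of the cycle gave the same absence of calls in muscle. Of 7 that were measured 5 had a negative difference, with a median of -0.06 (-0.21 without congenic array 3, again 5 negative); limma called 0 in either fit, and 1 was under 0.05 before adjustment. Among the subunits of succinate dehydrogenase, which oxidises succinate and belongs to the respiratory chain as well, Sdha read 15.97 to 16.17 in congenic and 16.24 to 16.66 in wild type muscle, without overlap, and its difference was -0.43 (SE 0.16, limma adjusted p = 0.835). It was -0.42 without congenic array 3. Sdhb had a difference of -0.79 at levels of 7.80 to 10.31, around the median of all probes. Suclg1, the alpha subunit that pairs with Sucla2, had a difference of -0.18, with congenic arrays at 15.58 to 15.76 and wild type arrays at 15.83 to 15.95. Dlst, the E2 component beside Ogdh and Dld, had -0.06 with all arrays and -0.24 without congenic array 3. The positive values of Idh2 (0.51) and Sdhc (0.19) were 0.076 and -0.058 without that array, and Sdhd went from -0.016 to 0.011.

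At the entry to the cycle, 4 of 8 genes of pyruvate dehydrogenase, its kinases and pyruvate carboxylase were negative with all arrays and 4 without congenic array 3, with medians of 0.02 and -0.055. Limma called 0 in either fit, with 0 under 0.05 before adjustment. Pdha1 and Pdhb, the E1 subunits of pyruvate dehydrogenase, had differences of -0.48 and -0.25 with all arrays, and -0.16 and -0.26 without congenic array 3. Pcx, pyruvate carboxylase, which makes oxaloacetate, had 0.37 and 0.25, and Pdhx, the subunit that binds Dld to that complex, 0.31 and 0.23. Of the kinases that shut pyruvate dehydrogenase off, Pdk1 had -0.040 and -0.12, Pdk2 -0.031 and -0.22, Pdk3 0.076 and 0.013, and Pdk4 0.07 and 0.051.

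In the pathways around the cycle limma called 0 genes with all arrays and 0 without congenic array 3. The respiratory chain had 15 of 27 genes negative with all arrays and 19 without that array, with medians of -0.08 and -0.085. Fatty acid oxidation turned from 3 of 10 negative with a median of 0.09 to 8 of 10 with a median of -0.12. Glycolysis had 6 and then 7 of 11 negative (medians -0.10 and -0.049), and the malate-aspartate and citrate shuttles 3 and then 4 of 7 (medians 0.04 and -0.009). Mitochondrial regulators had 11 and then 14 of 16 negative (medians -0.35 and -0.17), and their most negative gene with all arrays, Mef2c, went from -1.07 to -0.37. With all arrays 1 respiratory chain gene and 1 regulator were under 0.05 before adjustment, and 0 genes of the other 3 lists. Without congenic array 3 these counts were 2 for the respiratory chain, 3 for the regulators, 2 for glycolysis, 1 for fatty acid oxidation and 1 for the shuttles.

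The genes whose pattern over the 6 muscle arrays was most like the mean of the 8 members were ranked by Pearson correlation among 8587 genes. That mean was 17.55, 17.55 and 17.26 in congenic muscle and 17.56, 17.82 and 17.76 in wild type muscle. It was lowest on congenic array 3 and highest on wild type arrays 2 and 3. The members' median on congenic array 3 was 17.68, within the 17.48 to 17.75 of the other 5 muscle arrays. Sucla2 and Dld were the members that fell furthest below the other arrays there. On wild type array 2 all 8 members, and on wild type array 3 7 of 8, lay above the mean of the other muscle arrays. The part of each array and each member in the ranking was not tested. The first was Enpp4 at 0.998, followed by Clic5 at 0.997, both on chromosome 17, and then by Fyco1 at 0.992, Pcmtd2 at 0.990 and Rpl39l at 0.989. Their correlations over 5 hypothalamus arrays were -0.86, 0.67, -0.32, 0.94 and 0.38. In all, 269 of the ranked genes had a correlation above 0.9.

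In hypothalamus the strain comparison of the cycle turned on wild type array 1. There Idh3g read 8.51 against 15.70 and 15.32 on the other wild type arrays and 14.47, 14.52 and 15.31 in the congenic mice. Sucla2 read 10.07 against 15.72 and 15.65, with 15.04, 15.002 and 16.99 in the congenic mice. Fh1 read 8.67 against 13.01 and 12.84, with 12.16, 12.74 and 13.32 in the congenic mice. The 3 genes were thus lower on this array by 4 log2 units or more (deviations of -6.56, -5.61 and -4.15 from the mean of the other 5 arrays), and Dld (-3.02) and Idh3a (-2.05) followed. Ogdh hardly moved (-0.14), and Cs (1.23) and Mdh2 (1.5) were higher there than on any other hypothalamus array.

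With all 6 hypothalamus arrays 5 of 8 differences were positive, from 1.86 for Sucla2 through 1.59 (Idh3g), 1.23 (Fh1), 0.99 (Dld), 0.52 (Idh3a), -0.28 (Cs) and -0.52 (Mdh2) to -0.65 for Ogdh. Limma called 0 of 8 members, 0 were under 0.05 before adjustment, and 0% of all probes were called, with adjusted p-values of the members from 0.936 to 0.944. No member's groups were free of overlap, against 5.67% of all genes lower and 3.01% higher in the congenic mice. Without wild type array 1 the count turned to 7 of 8 negative, with a median of -0.11 against -0.07 over all genes, of which 55.5% were negative. Limma then called 0 of 8 members and 0% of all probes, with 1 member, Ogdh, and 1761 probes under 0.05 before adjustment. When congenic array 3 was left out too, 606 probes were called, of which 0 were members.

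That member, Ogdh, read 14.91, 14.52 and 15.41 in the congenic hypothalamus and 15.90 and 15.74 on the remaining wild type arrays. All congenic arrays lay below both, and below 2 of 3 wild type arrays when array 1 (15.15) was counted. The difference was -0.87 (SE 0.36, 95% interval -1.70 to -0.04), but the limma adjusted p was 0.90. Idh3g was the other gene without overlap, at -0.74 (95% interval -1.59 to 0.10, limma adjusted p = 0.90); 2 of 8 members lower without overlap compare with 16.4% of all genes, and 0 higher with 7.98%. The rest lay between -0.21 (Idh3a) and 0.16 (Cs), with Sucla2 at -0.01, Dld at -0.03, Mdh2 at -0.03 and Fh1 at -0.19. These small differences average congenic arrays that were unlike. Relative to the mean of the other 4 remaining arrays, the members' median deviation was -0.52, -0.53 and 0.63 on congenic arrays 1, 2 and 3. Over all genes it was -0.07, -0.14 and 0.02. Below that mean lay 8 of 8 members on congenic array 1, 7 on array 2 and 1 on array 3.

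Congenic hypothalamus array 3 was high in Sucla2 and Dld. No label ties it to congenic muscle array 3, where both genes were low. Sucla2 stood 1.64 above the mean of the other 4 usable arrays, at percentile 96.2 of all genes, and Dld 1.12 above, at percentile 91.3. Cs was 0.84, Idh3a 0.64, Fh1 0.63, Idh3g 0.31 and Ogdh 0.15 above, and Mdh2 had a deviation of -0.18. The correlation of Dld with Sucla2 over the 5 arrays was 0.99, this array included. Oligodendrocyte markers were high on the same array, with a median deviation of 3.6 over 5 genes and a summed level of 17.45 against 12.68 to 15.79 on the other 4. Oxidative phosphorylation went the other way there, with a median deviation of -0.38. Of its 27 genes 16 lay below the other arrays, 9 of them by over 1 log2 unit, and 0 lay over 1 above. Macrophage and anterior pituitary markers (6 genes each) had median deviations of -0.85 and -1.66 on that array. The summed level of 6 anterior pituitary markers was 19.11 on congenic hypothalamus array 1, 15.18 on wild type array 1 and 13.80 to 15.04 on the other 4. The part of any of these lists in the members' values was not tested.

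No member's strain difference was shown to differ between the tissues. In the interaction contrast over 11 arrays limma called 0 of 8 members and 0% of all probes, with 1 member, Ogdh, and 2224 probes under 0.05 before adjustment. Ogdh had an interaction of 0.97, as a difference of 0.10 in muscle and -0.87 in hypothalamus gives, and the adjusted p-values of the members ran from 0.727 to 0.965. Without congenic hypothalamus array 3 limma called 237 probes in this contrast, of which 0 were members.

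Between the tissues the cycle did differ. Of the 8 members 7 were higher in muscle at an adjusted p under 0.05 in limma over 11 arrays, against 30.4% of all named genes (49.5% in either direction), and the remaining one, Mdh2, was not called. The arrays of each tissue had been normalized separately, so a level set across tissues depends on the assumption that the overall distributions are comparable. The median tissue difference was 2.24 over the members and 0.27 over all genes.

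Fh1 had the widest gap, with 15.45 to 16.08 in muscle and 12.16 to 13.32 on 5 hypothalamus arrays. Its difference of 2.94 (SE 0.22) is 7.68-fold on the base 2 taken here (limma adjusted p = 7.74e-08). Its mean moved from percentile 85.9 of all probes in hypothalamus to 95.6 in muscle. Cs followed at 2.42 (SE 0.23, 5.36-fold, limma adjusted p = 7.10e-07), with 18.42 to 18.82 in muscle and 15.87 to 16.86 in hypothalamus. Idh3g, Idh3a and Ogdh lay close together at 2.31, 2.26 and 2.21, which is 4.95-, 4.80- and 4.63-fold. In these 5 genes the lowest muscle array was above the highest of the 5 hypothalamus arrays, as in 23.2% of all genes, and 0 members lay the other way without overlap, against 14.5%.

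Sucla2 and Dld were higher in muscle by less, and their tissues overlapped. Sucla2 had a difference of 1.57 (SE 0.43, 2.97-fold, limma adjusted p = 0.00864), and its congenic muscle array 3 (15.37) lay below 3 of the 5 hypothalamus arrays. Dld had 1.27 (SE 0.29, 2.42-fold, limma adjusted p = 0.00268), and its congenic muscle array 3 (16.07) lay below congenic hypothalamus array 3 (16.74). Mdh2 differed by 0.20 (SE 0.23, 95% interval -0.29 to 0.68, limma adjusted p = 0.539): it read 18.42 to 18.75 in muscle and 18.15 to 18.75 in hypothalamus. When the 11 arrays were quantile-normalized together, Fh1 (2.45), Cs (1.58), Idh3g (1.54), Idh3a (1.44) and Ogdh (1.42) were still called. Sucla2 (0.79, limma adjusted p = 0.177) and Dld (0.47, limma adjusted p = 0.245) were not, and Mdh2 turned to lower in muscle (-0.62, limma adjusted p = 0.0419). The median over all genes was 0.08 on that scale, and 25.2% of them were called higher in muscle.

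**Figure D4:**
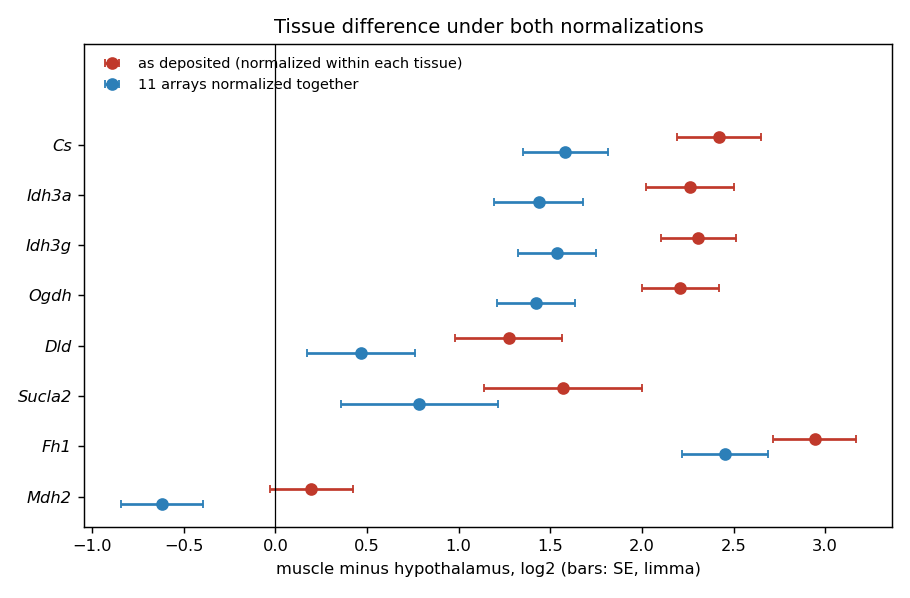
Tissue difference (muscle minus hypothalamus, log2) of each member over 11 arrays, on the values as deposited and after joint quantile normalization, with bars of 1 SE from limma. Fh1 leads at 2.94 and Mdh2 is lowest at 0.20; joint normalization lowers every gene, to 2.45 for Fh1 and -0.62 for Mdh2.

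On the values as deposited, the rest of the cycle largely followed. On that scale 30.4% of all named genes were called higher in muscle, and 49.5% in either direction. Joint normalization, which lowered every member, is not given for these lists, so small differences may depend on the scale. Of 7 other cycle genes 6 were called higher in muscle: Idh2 (2.67), Suclg1 (2.43), Sdhd (2.32), Dlst (2.07), Sdhc (1.83) and Sdha (0.67). Sdhb went the other way, at -8.71, with 7.80 to 10.31 in muscle and 17.40 to 17.76 on 5 hypothalamus arrays, while the other 3 subunits of the same enzyme were higher in muscle. The muscle values of Sdhb lay around the median of all probes there (9.12). Whether its probe reports the gene was not tested. Of 8 genes around pyruvate dehydrogenase 7 were called higher in muscle, with Pdk4 at 6.02, and Pdk3 was called lower at -3.24. Oxidative phosphorylation had 24 of 27 genes called higher and 1 lower, with a median of 2.10, close to that of the members. Fatty acid oxidation had 10 of 10 called higher with a median of 3.47, glycolysis 6 higher and 3 lower of 11, and the shuttles 2 higher and 3 lower of 7.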

How the data were processed

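Total RNA (TRI-Reagent, then Qiagen columns) was converted to digoxigenin-labelled cRNA and read on 1-colour Applied Biosystems chemiluminescent arrays, per the labels' protocols. The authors deposited 1 value per probe and array, taken here as log2 intensity; the base is inferred from the range of the values. Sorted values were nearly identical between the arrays of 1 tissue, the pattern that quantile normalization leaves. Neither software nor background correction is named (not given in the sources used here); signal over background is therefore unknown, and the number of arrays limits the precision. Groups came from the sample titles, and not from the description, which calls every animal congenic.

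In the platform annotation 14411 probes had 1 symbol, 247 had several and 18354 had none. The brightest probe stood for a gene. Strain differences (congenic minus wild type) were tested within each tissue, and the tissue difference and the interaction over 11 arrays, on the values as deposited, by lmFit and trended eBayes of limma 3.58.1 (R 4.3.3), with Benjamini-Hochberg adjustment over all 33012 probes and a threshold of 0.05. Each p-value sets a difference against the spread between these arrays, with the variance of a probe drawn towards a trend over all probes. The naming rule took all members and the 5 genes most like their mean, and allowed any other gene of the cycle and of pyruvate dehydrogenase and the 2 lowest and 2 highest genes of other lists, of which Mef2c is named. The members, lists and tests were chosen with earlier results of these data known.

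Same-numbered arrays did not deviate together between strains or tissues (correlations of -0.129 to 0.138), so numbers were not used as pairs. On simulated data with 200 changed probes in the muscle design, limma recovered 0 at 2-fold, 55 at 4-fold and 180 at 16-fold. In the hypothalamus design with all 6 arrays it recovered 0, 0 and 39, and in the tissue design 0, 125 and 197. False calls were 9 in muscle at 16-fold, and 7 and 8 in the tissue design at 4-fold and 16-fold. The changed probes were drawn from all probes, so these counts do not measure recovery for bright probes such as those of the members. Alternatives were each array left out, a replicate block, a floor at the 20th percentile, a filter on dim probes, joint normalization, 1 fit over all arrays, no trend and array weights. Without congenic muscle array 3 or wild type hypothalamus array 1, these were added after the data were seen.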

Additional observations from a re-analysis of the deposited data

How the results depend on the processing

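The call of 0 members for strain and for the interaction, and of 7 for tissue, held with each array left out, and the floor, the dim-probe filter, the fit over all arrays and the fit without trend reversed no value of a member. Since each member had 1 probe, averaging probes changes nothing. Array weights in hypothalamus gave 7 negative differences in place of 3, with Idh3a -0.19, Idh3g -0.80, Dld -0.14, Sucla2 -0.21, Fh1 -0.32 and Mdh2 0.016; without wild type array 1 they gave Cs -0.0206. The replicate block changed no call of a member; without wild type array 1 it left 3 negative differences in hypothalamus in place of 7, with Dld 0.19, Sucla2 0.31, Fh1 0.10 and Mdh2 0.0751. All 12 arrays gave a tissue difference of -0.0509 for Mdh2 (1 negative), and interactions of 0.26 for Cs, -1.59 for Idh3g, -1.30 for Fh1 and 0.33 for Mdh2. Joint normalization gave 6 members called and a tissue median of 1.43, with 1 negative (Mdh2, -0.62). Over all probes calls ran from 1 to 9 in muscle, from 0 to 15 without congenic array 3, and from 0 to 606 in hypothalamus without wild type array 1 (19 with the replicate block).

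Leaving out 1 array gave, in muscle, 4 to 8 negative differences and a median of -0.21 to -0.09, with Cs -0.14 to 0.0471, Idh3g -0.0596 to 0.0347, Fh1 -0.24 to 0.0786, Ogdh -0.0523 to 0.19, Dld -0.81 to -0.24 and Sucla2 -1.28 to -0.21. Without congenic array 3 as well, 7 to 8 were negative, the median was -0.28 to -0.12 and Ogdh ran from -0.0932 to 0.014. In hypothalamus 3 to 7 were negative and the median was -0.11 to 1.29, with Cs -0.59 to 0.16, Idh3a -0.21 to 1.05, Idh3g -0.74 to 2.85, Dld -0.026 to 1.53, Sucla2 -0.0093 to 2.82 and Fh1 -0.19 to 1.98. Without wild type array 1 as well, 3 to 7 were negative and the median was -0.49 to 0.09, with Cs -0.14 to 0.35, Idh3a -0.56 to 0.14, Dld -0.48 to 0.21, Sucla2 -0.67 to 0.33, Fh1 -0.48 to 0.10 and Mdh2 -0.32 to 0.26. Interactions ran from -0.38 to 0.12 for Cs, -0.50 to 0.20 for Idh3a, -0.17 to 0.41 for Fh1 and -0.45 to 0.13 for Mdh2. The cause of these changes was not tested.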
